A study of Mus musculus with 4 samples.

Results

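The cytochrome P450 genes of families 1 to 3 encode the heme enzymes that carry out most oxidation of drugs and other foreign compounds in the liver. They were taken as every gene of the deposited table with a protein-coding biotype and a symbol made of Cyp, a family digit from 1 to 3, a subfamily letter and a gene number. This gave 60 genes of the 54149 in the table, and 40 of them had a mean of at least 1 FPKM (fragments per kilobase of gene length, scaled to a library total) and were tested. The animals were adult females, and their strain was C57BL/6 x 129S4/SvJae. One group was wild type, and the other carried a knockout of Utx (Kdm6a), a histone H3 demethylase encoded on the X chromosome, that was specific to the liver. Both groups had been fasted for 16 h and then injected intraperitoneally with acetaminophen (APAP) at 300 mg/kg. Each group had 2 RNA sequencing libraries, and each library was a pool of liver RNA from 2 mice. The sources used here do not give the promoter that drove the liver-specific deletion, the deleted part of Utx or the time between injection and sampling. All animals had received the drug, so the comparison is between genotypes in treated liver and does not measure the effect of the drug. Since the RNA of mice was mixed before sequencing, tests compare genotypes with the variation among mixtures and not among single animals.

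A P450 enzyme binds its substrate beside a heme iron in the membrane of the endoplasmic reticulum, receives electrons from P450 oxidoreductase (Por) and inserts an oxygen atom into the substrate. In hepatocytes most acetaminophen is conjugated and excreted, and P450 enzymes oxidise the rest, above all Cyp2e1 with Cyp1a2 and Cyp3a enzymes, to a reactive quinone imine that glutathione traps. Many of these genes respond to the nuclear receptors CAR (Nr1i3) and PXR (Nr1i2) or to the aryl hydrocarbon receptor, many differ between the sexes, and many are expressed mainly by hepatocytes around the central vein.

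The 4 libraries held 16330451 to 17804730 reads assigned to listed genes. Kdm6a itself was at 3.40 and 3.85 FPKM in wild type and 2.20 and 2.12 FPKM in the knockout, a log2 fold change of -0.63 (SE 0.13) that did not pass the threshold (limma adjusted p = 0.0715). Across all genes tested, 564 of 11900 passed an adjusted p under 0.05, which is 4.74%, with 1.6% higher and 3.14% lower in the knockout. Of 11 hepatocyte markers tested none passed by limma-trend, none had an unadjusted p under 0.05 and none passed by limma-voom, with a median log2 fold change of 0.06. Of 10 neutrophil markers tested 5 fell and all 10 were lower in both knockout pools, as were 29.9% of all genes tested. The list of 12 summed to 433 and 542 FPKM in wild type against 195 and 202 FPKM in the knockout. Most of that sum was Lcn2, at 312 and 358 FPKM against 154 and 165 FPKM. The 2 granule genes of that list under the minimum were not lower in both: Ltf was at 0.154 and 0.0369 FPKM against 0.0813 and 0.321 FPKM, and Camp was at 0.156 and 0 FPKM against 0.518 and 1.00 FPKM. The cholangiocyte list summed to 272 and 109 FPKM in wild type against 48.3 and 26.7 FPKM in the knockout, and 1 of its 5 tested markers fell (Sox9). The largest part of that wild-type sum was Spp1, at 247 and 89.6 FPKM against 33.7 and 12.9 FPKM, which was not called. Of 12 macrophage, 10 sinusoidal endothelial and 8 stellate cell markers none passed by limma-trend or limma-voom. An unadjusted p under 0.05 was reached by 0, 4 and 3 of them, and by 27.1% of all genes tested. Both knockout pools were lower for 6 of the 10 endothelial and 5 of the 8 stellate markers, and higher for 0 and 2. Of all genes tested, 29.9% were lower and 31.6% higher in both. The endothelial list summed to 102 and 94.9 FPKM in wild type against 71.3 and 76.5 FPKM in the knockout. The stellate list summed to 136 and 129 FPKM against 116 and 105 FPKM, mostly from Ecm1 (91.2 and 79.2 against 69.5 and 65.6 FPKM). The share of reads from mitochondrial ribosomal RNA was 0.244% and 0.251% in wild type and 0.108% and 0.158% in the knockout. The neutrophil, cholangiocyte, sinusoidal endothelial, stellate and mitochondrial sums were thus lower in both knockout pools, with no test of the sums. Their part in the P450 results was not tested. In bulk liver, fewer cells of a type and less RNA per cell cannot be told apart.

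Of the 40 P450 genes tested, 3 rose in the knockout (Cyp2a5, Cyp2f2 and Cyp2c29), 1 fell (Cyp2b10) and 36 did not pass the threshold. The 4 that passed are 10% of those tested, against 4.74% of all genes tested. A second test, limma-voom on the reads recovered from the FPKM, called 5 upward and 2 downward, adding Cyp2b13, Cyp2c70 and Cyp3a59, where 9.27% of all genes passed, 3.28% upward and 5.99% downward. Upward calls of limma-trend were 7.5% of the P450 genes against 1.6% of all genes, and downward calls were 2.5% against 3.14%. An unadjusted p under 0.05 was reached by 13 of the 40, against 27.1% of all genes tested. Both knockout pools lay above both wild-type pools for 14 of the 40 (35%, against 31.6% of all genes tested), below them for 7 (17.5%, against 29.9%), and the groups overlapped for 19. The median log2 fold change was 0.10 over the 40 genes and 0.01 over all genes tested, and 23 of the 40 had a log2 fold change within 0.5 of 0. With 2 pools per group, leaving out 1 pool left its group with no spread of its own. Fewer genes then passed, among the P450 genes and over all genes. The test also had less power, so these 4 fits cannot show whether a call rests on 1 pool. Over all alternatives, these fits included, the log2 fold change lay between 2.34 and 3.06 for Cyp2a5 and between 0.95 and 1.18 for Cyp2f2. It lay between 0.76 and 0.93 for Cyp2c29 and between -2.85 and -1.96 for Cyp2b10.

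**Figure D1:**
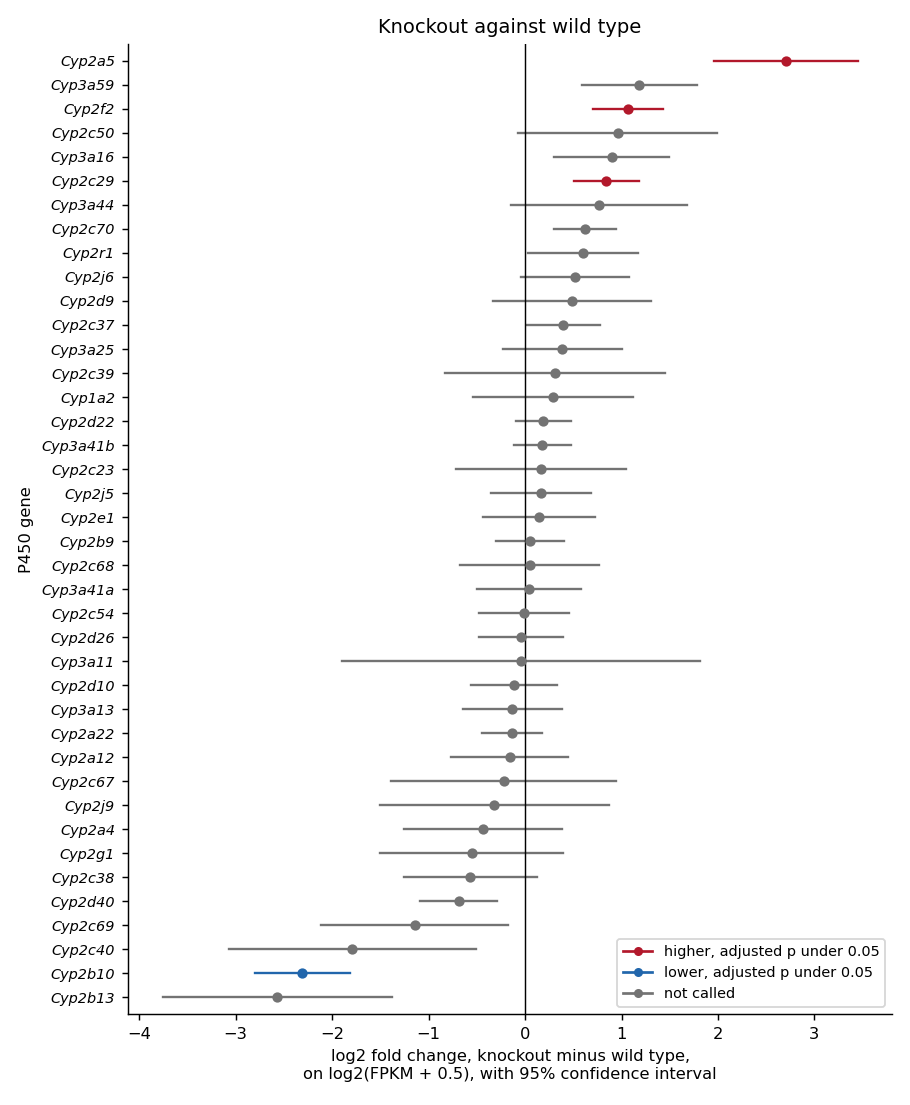
Log2 fold change, knockout minus wild type on log2(FPKM + 0.5), of the 40 P450 genes tested, 1 row per gene, with bars for the 95% confidence interval; red and blue mark genes higher or lower at an adjusted p under 0.05 and grey marks the rest. The 3 red genes lie at 2.70, 1.07 and 0.84, the blue gene lies at -2.31, and the interval of Cyp3a11 is the widest on the plot, from -1.90 to 1.81.

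The sequences just before the starts of the genes on which the results turn are given here from RefSeq on GRCm38.p6, each as the 250 bases before the RefSeq start, read along the plus strand, on which all 7 genes lie. They show how alike the promoters of these paralogs are. Capitals mark matches, on either strand, to letters searched for: TATAAA (the TATA box), AGGTCA (a nuclear receptor half-site) and GCGTG (the core that the aryl hydrocarbon receptor binds). The Cyp2a5 and Cyp2a4 stretches cover chr7:26835089-26835338 and chr7:26306942-26307191, those of Cyp2b13, Cyp2b9 and Cyp2b10 cover chr7:26061245-26061494, chr7:26173159-26173408 and chr7:25897408-25897657, and those of Cyp2f2 and Cyp2c29 cover chr7:27119705-27119954 and chr19:39286835-39287084. The last lies inside the gene as the deposited table lists it, since the table starts Cyp2c29 at base 39269405 of chromosome 19. The ends of 4 others also reach into the gene as listed. On chromosome 7 the listed starts are 26835305 for Cyp2a5, 26307169 for Cyp2a4, 25897620 for Cyp2b10 and 27119909 for Cyp2f2.
Cyp2a5: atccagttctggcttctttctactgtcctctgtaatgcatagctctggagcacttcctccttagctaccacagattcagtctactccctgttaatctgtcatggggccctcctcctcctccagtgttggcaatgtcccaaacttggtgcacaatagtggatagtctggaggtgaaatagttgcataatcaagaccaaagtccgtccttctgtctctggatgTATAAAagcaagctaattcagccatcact
Cyp2a4: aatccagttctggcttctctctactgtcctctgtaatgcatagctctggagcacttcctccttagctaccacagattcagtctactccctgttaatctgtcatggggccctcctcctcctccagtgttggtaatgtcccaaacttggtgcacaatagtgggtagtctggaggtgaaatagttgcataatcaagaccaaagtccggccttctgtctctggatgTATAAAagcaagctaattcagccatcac
Cyp2b13: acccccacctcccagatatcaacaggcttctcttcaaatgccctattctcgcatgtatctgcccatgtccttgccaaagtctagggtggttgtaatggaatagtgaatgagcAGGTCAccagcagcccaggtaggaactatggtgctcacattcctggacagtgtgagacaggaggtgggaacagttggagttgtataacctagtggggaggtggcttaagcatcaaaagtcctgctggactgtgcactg
Cyp2b9: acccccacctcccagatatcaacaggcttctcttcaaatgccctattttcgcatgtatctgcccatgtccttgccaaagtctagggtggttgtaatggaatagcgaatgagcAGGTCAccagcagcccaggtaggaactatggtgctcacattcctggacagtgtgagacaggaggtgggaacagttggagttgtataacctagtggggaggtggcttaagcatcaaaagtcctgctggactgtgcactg
Cyp2b10: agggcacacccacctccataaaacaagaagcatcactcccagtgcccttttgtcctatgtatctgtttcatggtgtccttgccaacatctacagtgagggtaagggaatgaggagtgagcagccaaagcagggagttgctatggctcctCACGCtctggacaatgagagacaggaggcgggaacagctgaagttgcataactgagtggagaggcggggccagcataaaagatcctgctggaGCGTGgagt
Cyp2f2: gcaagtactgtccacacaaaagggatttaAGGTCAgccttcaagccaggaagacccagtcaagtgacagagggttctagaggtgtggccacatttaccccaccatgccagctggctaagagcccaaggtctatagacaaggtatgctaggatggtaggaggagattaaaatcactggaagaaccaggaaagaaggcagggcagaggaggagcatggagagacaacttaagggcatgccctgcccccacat
Cyp2c29: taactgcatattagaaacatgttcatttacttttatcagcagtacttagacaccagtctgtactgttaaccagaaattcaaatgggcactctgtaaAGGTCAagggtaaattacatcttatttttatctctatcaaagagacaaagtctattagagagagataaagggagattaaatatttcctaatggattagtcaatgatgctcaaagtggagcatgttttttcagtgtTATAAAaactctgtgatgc
Cyp2a4 and Cyp2a5 were 98.39% identical here, with 4 mismatches, and both held TATAAA near the start. Cyp2b9 and Cyp2b13 were 99.2% identical, with 2 mismatches, whereas Cyp2b10 matched either of them at 74.58%. None of the 3 Cyp2b stretches held TATAAA, and Cyp2b10 held GCGTG at 2 places, the second of them inside the gene as listed. A match is a description of letters and not a shown binding site.

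The acetaminophen-oxidising enzymes were led by Cyp2e1, the ethanol-inducible P450 that does most of this oxidation, which was the most abundant of all 60 genes. It reached 1156 and 1579 FPKM in wild type and 1488 and 1506 FPKM in the knockout. The knockout values lay between the wild-type values, and the log2 fold change of 0.15 (SE 0.22, 95% interval -0.43 to 0.73) did not pass (limma adjusted p = 0.699). Cyp1a2, which also oxidises caffeine and aromatic amines, was at 30.6 and 40.9 FPKM in wild type and at 57.5 and 32.7 FPKM in the knockout. Its groups overlapped, with a log2 fold change of 0.29 (95% interval -0.54 to 1.12, limma adjusted p = 0.589). Cyp3a11, a PXR target and the usual mouse counterpart of human CYP3A4, was at 34.7 and 149 FPKM in wild type and at 77.3 and 63.0 FPKM in the knockout. Its wild-type pools were 4.29-fold apart, and the log2 fold change of -0.04 had an interval of -1.90 to 1.81 (limma adjusted p = 0.974), so a change of several fold either way was not detectable. Cyp3a13 was at 69.8 and 85.1 FPKM in wild type and at 81.3 and 60.9 FPKM in the knockout, and its groups overlapped. Cyp2d22 was at 31.5 and 33.5 FPKM in wild type and at 35.9 and 38.3 FPKM in the knockout, a log2 fold change of 0.19 with an interval of -0.09 to 0.47 (limma adjusted p = 0.321). The list of 6 such genes, which also holds Cyp2a5, thus had 1 call, upward, and a median log2 fold change of 0.17.

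**Figure D2:**
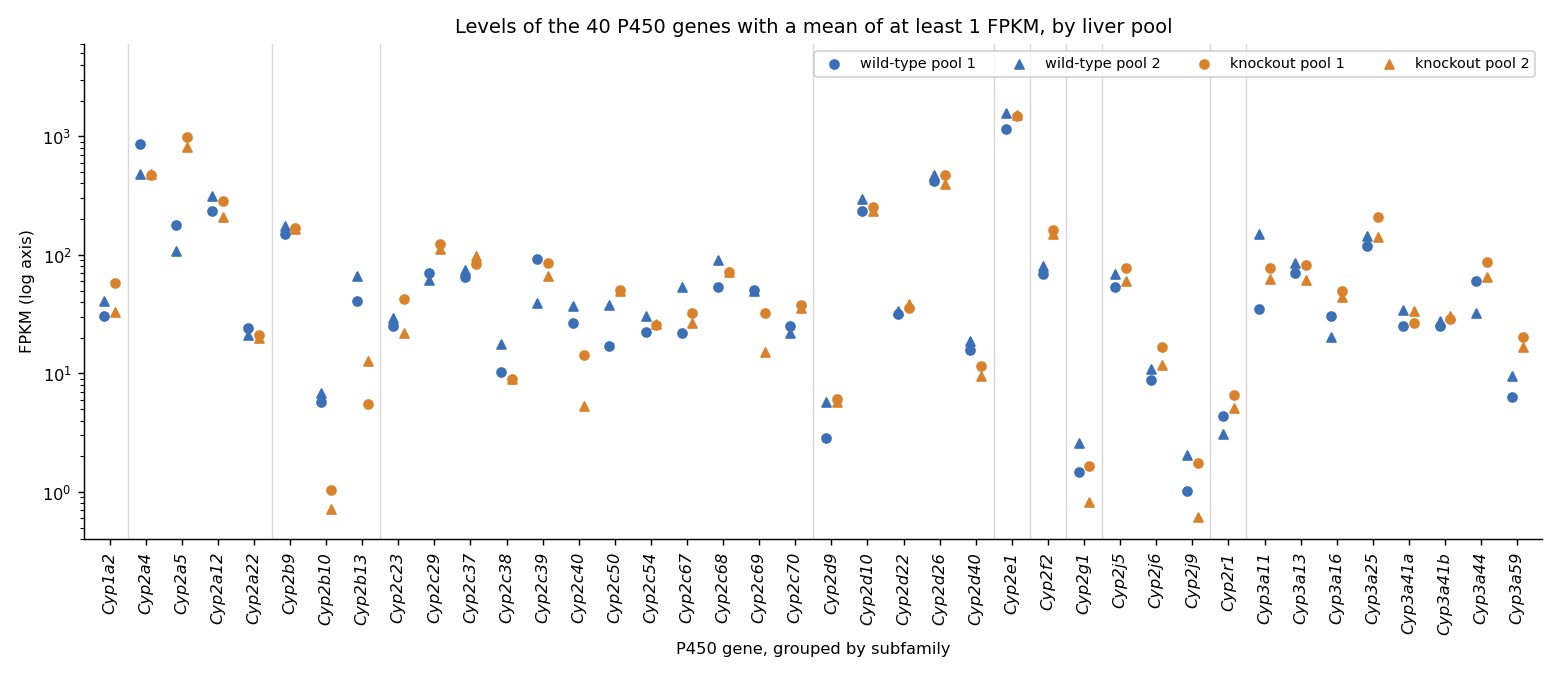
FPKM on a log axis of the 40 P450 genes tested, grouped by subfamily, with 1 point for each of the 2 wild-type and 2 knockout pools. The wild-type and knockout points of Cyp2a5 and Cyp2b10 stand far apart, whereas those of Cyp2e1 lie between 1156 and 1579 FPKM.

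The largest rise was that of Cyp2a5, the coumarin 7-hydroxylase, a hepatic P450 that also oxidises nicotine. It stood at 177 and 108 FPKM in wild type and at 993 and 817 FPKM in the knockout. The groups did not overlap, and the mean went from 142 ± 49.0 (SD, n = 2) to 905 ± 124 FPKM (SD, n = 2), 6.36-fold higher. The log2 fold change was 2.70 (SE 0.28, 95% interval 1.95 to 3.45, limma adjusted p = 0.0307), and it stayed between 2.34 and 3.06 over 17 alternative analyses, 12 of which called it. Cyp2a4, a steroid 15-alpha-hydroxylase with higher expression in female liver, was at 861 and 479 FPKM in wild type and at 470.1 and 476 FPKM in the knockout. Its knockout pools lay just below the lower wild-type pool, and the log2 fold change of -0.44 did not pass (SE 0.31, limma adjusted p = 0.413). Cyp2a5 therefore made up 17.0% and 18.4% of the summed FPKM of the pair in wild type and 67.9% and 63.2% in the knockout.

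The coding sequences of Cyp2a4 and Cyp2a5 were 98.45% identical, with 23 mismatches over 1482 bases and a longest identical run of 216 bases. Bases 550 to 669 of each coding sequence (GENCODE M21) are given, with the 6 that differ in capitals. This is the 120-base stretch with the most differences, and over the whole coding sequence the mismatches lie farther apart on average.
Cyp2a4: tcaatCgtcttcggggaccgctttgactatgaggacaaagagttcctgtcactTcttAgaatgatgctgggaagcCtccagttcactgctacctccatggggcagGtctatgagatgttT
Cyp2a5: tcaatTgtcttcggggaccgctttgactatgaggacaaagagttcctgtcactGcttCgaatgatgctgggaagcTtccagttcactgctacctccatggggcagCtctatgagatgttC
Of all 100-base windows of their transcripts, 11.2% of those of Cyp2a4 and 14.4% of those of Cyp2a5 occurred unchanged in a GENCODE M21 transcript of another gene, either the other of the pair or the pseudogene Cyp2a21-ps, so reads in those windows could have been assigned to more than 1 gene. The sources used here do not say how the authors' counting treated such reads. The sum of both genes is less affected by a division of reads within the pair, though not by one with the pseudogene (0.432 to 1.74 FPKM), and it was 1038 and 586 FPKM in wild type and 1463 and 1293 FPKM in the knockout. Both knockout pools lay above both wild-type pools at 1.70-fold, and the log2 fold change of 0.82 (SE 0.32, 95% interval -0.02 to 1.66) did not pass (limma adjusted p = 0.19). The call on Cyp2a5 is thus on the gene as the table separates it from Cyp2a4. An antisense gene, Gm42375, overlaps Cyp2a4 at 2.51 to 3.92 FPKM, and strand marking is not stated.

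The remaining Cyp2a genes did not pass the threshold. Cyp2a12, which hydroxylates testosterone and bile acids, was at 236 and 310.4 FPKM in wild type and at 282 and 208 FPKM in the knockout, with overlapping groups. Cyp2a22 was at 24.1 and 21.2 FPKM in wild type and at 21.2 and 20.0 FPKM in the knockout, also overlapping. The whole subfamily summed to 1298 and 918 FPKM in wild type and to 1766 and 1521 FPKM in the knockout, higher in both knockout pools.

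**Figure D3:**
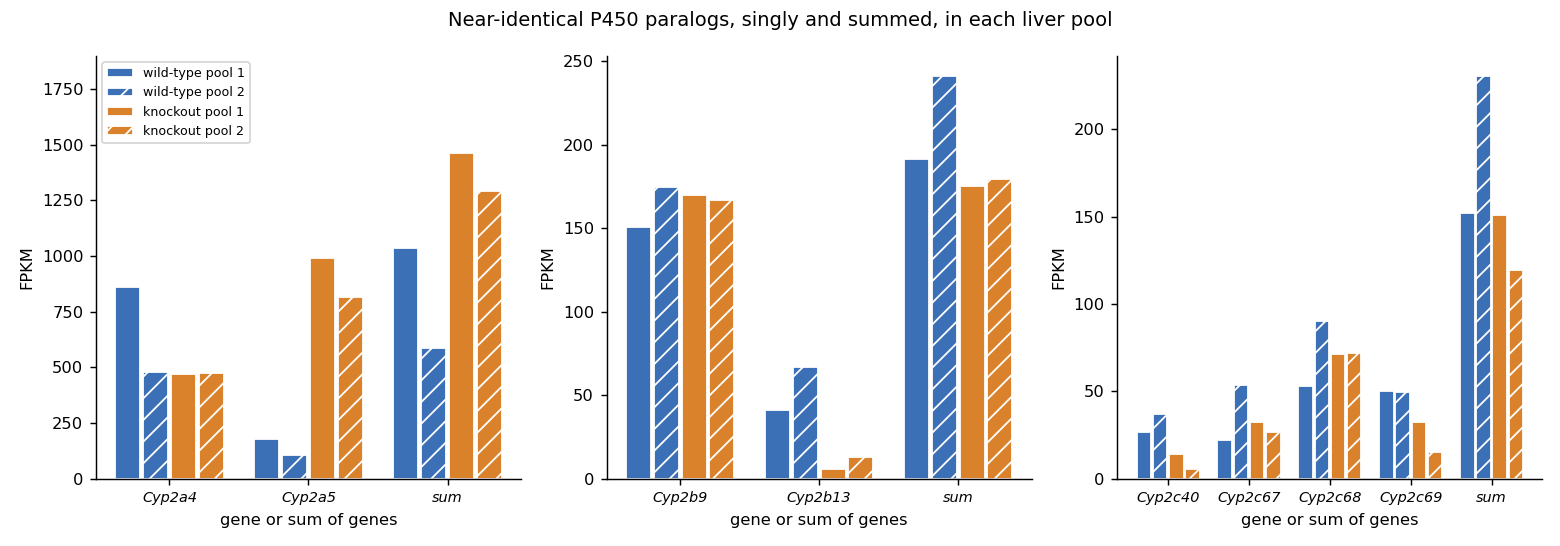
FPKM of near-identical P450 paralogs, singly and as a sum, in each of the 2 wild-type and 2 knockout pools, with 1 panel per set and bars starting at 0. The Cyp2a5 bars go from 177 and 108 to 993 and 817 FPKM, the Cyp2a4 and Cyp2a5 sum from 1038 and 586 to 1463 and 1293 FPKM, and the Cyp2b13 bars from 40.9 and 66.8 to 5.51 and 12.7 FPKM.

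In the Cyp2b subfamily 1 of 3 tested genes fell and none rose. Cyp2b10, the phenobarbital-inducible target of CAR, was at 5.74 and 6.87 FPKM in wild type and at 1.04 and 0.718 FPKM in the knockout, from 205 and 228 reads against 39 and 26. The groups did not overlap, and the mean fell from 6.30 ± 0.795 to 0.877 ± 0.225 FPKM (SD, n = 2 each), 7.19-fold lower. The log2 fold change was -2.31 (SE 0.19, 95% interval -2.80 to -1.82, limma adjusted p = 0.0258), and 11 of the 16 alternative analyses in which it was tested called it. None of its 100-base windows occurred in a transcript of another gene.

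Cyp2b13, a P450 with higher expression in female liver, was at 40.9 and 66.8 FPKM in wild type and at 5.51 and 12.7 FPKM in the knockout, a 5.92-fold difference. The groups stood far apart, but the log2 fold change of -2.57 (SE 0.45, 95% interval -3.76 to -1.38) missed the threshold (limma adjusted p = 0.0539), and 6 of 17 alternatives called it. Cyp2b9, also higher in females, was at 150.4 and 174 FPKM in wild type and at 169.9 and 167 FPKM in the knockout. Its log2 fold change of 0.05 (95% interval -0.30 to 0.41, limma adjusted p = 0.819) sits beside a 250-base promoter stretch that differs from that of Cyp2b13 at 2 bases. Their coding sequences were 92.74% identical, and 9.29% of the 100-base windows of Cyp2b13 and 1.18% of those of Cyp2b9 were shared with each other or with the pseudogene Gm45225. Cyp2b13 was 21.4% and 27.7% of the summed FPKM of the pair in wild type and 3.14% and 7.08% in the knockout. The sum, 191 and 241 FPKM against 175 and 179 FPKM, had a log2 fold change of -0.28 (limma adjusted p = 0.330, SE 0.16).

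Cyp2f2, best known for activating naphthalene in the airway and expressed by periportal hepatocytes in liver, was at 68.5 and 80.5 FPKM in wild type and at 163 and 149 FPKM in the knockout. The groups did not overlap, and the mean rose 2.10-fold, from 74.5 ± 8.53 to 156 ± 10.1 FPKM (SD, n = 2 each). The log2 fold change was 1.07 (SE 0.14, 95% interval 0.70 to 1.43, limma adjusted p = 0.0375), and 9 of 17 alternatives called it. No 100-base window of Cyp2f2 was shared, and the antisense gene that overlaps it, Gm15883, was at 1.29 to 4.12 FPKM.

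The Cyp2c subfamily, whose members oxidise drugs, arachidonic acid and bile acids, had 15 genes, 12 tested, and 1 call. Cyp2c29, a CAR-responsive P450 that makes epoxides of arachidonic acid, was at 69.9 and 61.9 FPKM in wild type and at 124 and 113 FPKM in the knockout. The groups did not overlap, and the mean rose 1.80-fold, from 65.9 ± 5.64 to 119 ± 8.13 FPKM (SD, n = 2 each), a log2 fold change of 0.84 (SE 0.13, 95% interval 0.50 to 1.18, limma adjusted p = 0.0451). It was called by 9 of 17 alternatives, and none of its 100-base windows was shared. Cyp2c70, which hydroxylates bile acids to make the muricholic acids of mice, was at 25.3 and 21.9 FPKM in wild type and at 37.8 and 35.4 FPKM in the knockout, and its log2 fold change of 0.63 (SE 0.12) missed the threshold (limma adjusted p = 0.0631).

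The 3 pericentral genes Cyp2c37, Cyp2c50 and Cyp2c54 did not pass singly. Cyp2c50 was at 16.9 and 38.0 FPKM in wild type and at 50.2 and 49.4 FPKM in the knockout, with the 2 wild-type pools 2.26-fold apart and a log2 fold change of 0.96 (limma adjusted p = 0.206). Cyp2c37 was at 64.5 and 73.9 FPKM against 84.5 and 98.4 FPKM, with no overlap, and Cyp2c54 was at 22.2 and 30.5 FPKM against 25.7 and 26.0 FPKM, with overlap. Summed, they reached 104 and 142 FPKM in wild type and 160.3 and 174 FPKM in the knockout, higher in both knockout pools but not past the threshold (log2 fold change 0.46, SE 0.19, limma adjusted p = 0.213).

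A further set of Cyp2c genes had lower values in the knockout. Cyp2c40 was at 26.7 and 37.1 FPKM in wild type and at 14.3 and 5.27 FPKM in the knockout, with a log2 fold change of -1.79 (limma adjusted p = 0.107, SE 0.49). Cyp2c69 was at 50.4 and 49.5 FPKM against 32.6 and 15.3 FPKM, with a log2 fold change of -1.14 (limma adjusted p = 0.140, SE 0.37). For both, the groups did not overlap, but the knockout pools were over 2-fold apart. Cyp2c38 was at 10.3 and 17.6 FPKM in wild type and at 8.96 and 8.97 FPKM in the knockout (log2 fold change -0.57, limma adjusted p = 0.246).

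Cyp2c40 and Cyp2c69 share long stretches with Cyp2c67 and Cyp2c68: 44.1%, 36.3%, 23.7% and 19.8% of the 100-base windows of Cyp2c40, Cyp2c69, Cyp2c67 and Cyp2c68 occurred in a transcript of another gene, in each case 1 of these 4. Their sum, formed after the values had been seen, was 152 and 231 FPKM in wild type and 151 and 119 FPKM in the knockout, a log2 fold change of -0.48 (limma adjusted p = 0.289). The wild-type pools of Cyp2c67 were 2.44-fold apart and those of Cyp2c39 were 2.35-fold apart, and the groups of Cyp2c39, Cyp2c67, Cyp2c68 and the arachidonic acid epoxygenase Cyp2c23 overlapped.

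The Cyp2d subfamily, which holds the counterparts of human CYP2D6, had 5 tested genes of 8 and no call by limma-trend, 1 gene at an unadjusted p under 0.05 and none by limma-voom. Cyp2d26 was at 417 and 474 FPKM in wild type and at 470.3 and 398 FPKM in the knockout, and Cyp2d10 was at 233 and 295 FPKM against 251 and 233 FPKM. Both are among the 6 most abundant of the 60 genes, and in both the groups overlapped. Cyp2d40 was at 15.7 and 18.6 FPKM in wild type and at 11.5 and 9.50 FPKM in the knockout, without overlap, with a log2 fold change of -0.69 (limma adjusted p = 0.0759, SE 0.15). Cyp2d9, a testosterone hydroxylase with higher expression in males, was at 2.87 to 6.10 FPKM in these female livers.

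The Cyp3a subfamily had 8 tested genes of 9, no call by limma-trend, 2 at an unadjusted p under 0.05 and 1 call by limma-voom. Cyp3a59 was at 6.35 and 9.59 FPKM in wild type and at 20.3 and 16.7 FPKM in the knockout, a log2 fold change of 1.18 (SE 0.23, 95% interval 0.59 to 1.78) that missed the threshold (limma adjusted p = 0.0608). Its coding sequence was 97.48% identical to that of Cyp3a25, which was at 118 and 144 FPKM against 207 and 141 FPKM. Their sum, also formed after the values had been seen, had a log2 fold change of 0.45 (limma adjusted p = 0.280). Cyp3a16, higher in females, was at 30.6 and 20.1 FPKM in wild type and at 49.6 and 43.8 FPKM in the knockout, without overlap (log2 fold change 0.90, SE 0.23, limma adjusted p = 0.0960).

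Cyp3a44, also higher in females, was at 60.6 and 32.1 FPKM in wild type and at 87.3 and 65.3 FPKM in the knockout (log2 fold change 0.77, limma adjusted p = 0.235). Cyp3a41a and Cyp3a41b, whose coding sequences were 99.87% identical and whose 100-base windows were shared, with each other or with Cyp3a44, at 90.8% and 88.2%, are uncertain as separate values. Their sum was 50.3 and 61.5 FPKM in wild type and 55.7 and 64.6 FPKM in the knockout, with overlapping groups (log2 fold change 0.11, 95% interval -0.30 to 0.52, limma adjusted p = 0.686). A processed pseudogene on the same strand, Gm15502, lies within Cyp3a13 and was at 3.70 and 23.8 FPKM in wild type and at 15.1 and 4.49 FPKM in the knockout.

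The enzymes of arachidonic acid and vitamin D gave no call by limma-trend among 4 tested, 1 at an unadjusted p under 0.05 and none by limma-voom. Cyp2r1, a vitamin D 25-hydroxylase, was at 4.39 and 3.07 FPKM in wild type and at 6.63 and 5.10 FPKM in the knockout (log2 fold change 0.60, SE 0.22, limma adjusted p = 0.171). Cyp2j6 was at 8.71 and 10.8 FPKM against 16.8 and 11.8 FPKM, and Cyp2j5, an arachidonic acid epoxygenase, was at 54.0 and 68.4 FPKM against 78.1 and 59.6 FPKM. Cyp2j9 and the olfactory P450 Cyp2g1 were near the minimum, at 0.612 to 2.04 FPKM and 0.816 to 2.61 FPKM.

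The other 20 genes had a mean under 1 FPKM and were not tested. Cyp2c65, Cyp2c66, Cyp2j7, Cyp2j11, Cyp2j12 and Cyp2j13 were listed at 0 in all 4 libraries. The remaining 14 (Cyp1a1, Cyp1b1, Cyp2b19, Cyp2b23, Cyp2c55, Cyp2d11, Cyp2d12, Cyp2d34, Cyp2j8, Cyp2s1, Cyp2t4, Cyp2u1, Cyp2w1 and Cyp3a57) had means of up to 0.892 FPKM, the value of Cyp2d11, while the lowest mean among tested genes was 1.36 FPKM, that of Cyp2j9. Cyp1a1, the classical target of the aryl hydrocarbon receptor, was at 0.212 and 0.205 FPKM in wild type and at 0.543 and 0.670 FPKM in the knockout.

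The P450 genes were also grouped by known regulators, place in the liver lobule and sex bias. Over all genes tested 1.6% rose and 3.14% fell, with a median log2 fold change of 0.01. Of 9 tested genes described as CAR or PXR targets 2 rose (Cyp2a5 and Cyp2c29) and 1 fell (Cyp2b10), with a median log2 fold change of 0.39. Of 8 pericentral genes 2 rose, the same Cyp2a5 and Cyp2c29, with a median of 0.34, while the 1 periportal gene of the lists, Cyp2f2, rose as well. Of 12 genes with higher expression in female liver 1 fell (Cyp2b10) and none rose, 5 had an unadjusted p under 0.05 (27.1% of all genes tested did), and the median was -0.29. In that list, both knockout pools were lower for 5 genes (Cyp2a4, Cyp2b10, Cyp2b13, Cyp2c40 and Cyp2c69) and higher for 3 (Cyp3a16, Cyp3a41b and Cyp3a44), where the shares of all genes tested were 29.9% lower and 31.6% higher. Together the 12 summed to 1302 and 951 FPKM in wild type and 909 and 871 FPKM in the knockout, a sum in which Cyp2a4 has the largest part.

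On the chromosomes, 51 of the 60 genes lay in 5 clusters of 8 to 14 genes, with neighbours less than 1000 kb apart. The cluster on chromosome 7 (chr7:25802475-27158668) held 13 genes of the Cyp2a, Cyp2b, Cyp2f, Cyp2g, Cyp2s and Cyp2t subfamilies. It contained Cyp2a5 and Cyp2f2, which rose, and Cyp2b10, which fell, with 9 genes tested. Over all genes tested 1.6% rose and 3.14% fell. Both knockout pools were higher for 2 of the 9, lower for 3 and overlapping for 4, where 31.6% of all genes tested were higher and 29.9% lower. Cyp2b10, Cyp2b13 and Cyp2b9 follow one another there with log2 fold changes of -2.31, -2.57 and 0.05. The cluster on chromosome 19 (chr19:39007019-40187333) held 14 Cyp2c genes, 11 tested, with both knockout pools higher for 4, lower for 3 and overlapping for 4, where 31.6% of all genes tested were higher and 29.9% lower in both. In the Cyp3a cluster on chromosome 5, both knockout pools were higher for 4 of 7 tested genes and lower for none, set against the same 31.6% and 29.9%, with no call by limma-trend.

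**Figure D4:**
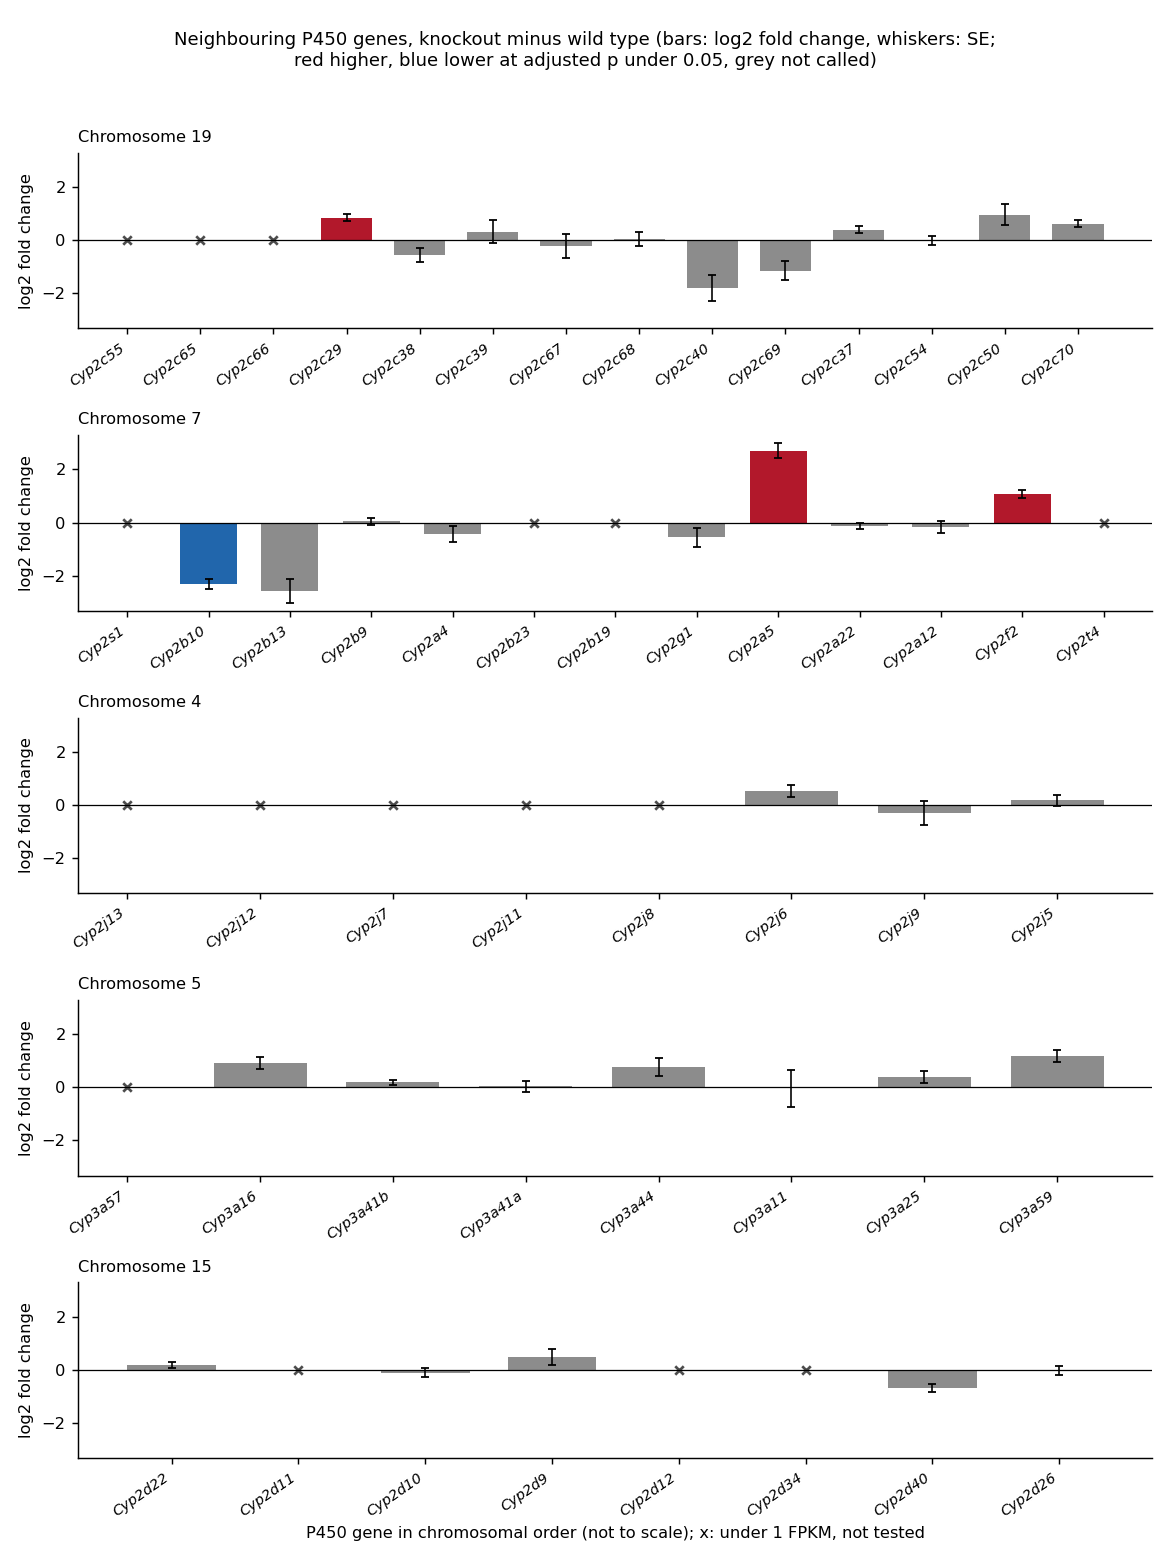
Log2 fold change, knockout minus wild type, of neighbouring P450 genes in chromosomal order (not to scale), with 1 panel per cluster, whiskers for the SE, red and blue for genes higher or lower at an adjusted p under 0.05, grey for the rest and x for genes under 1 FPKM. In the chromosome 7 panel Cyp2b10 (-2.31) and Cyp2a5 (2.70) stand on opposite sides of 0, with Cyp2b9 at 0.05 between them.

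The promoters of 52 of the 60 genes were found in the RefSeq table. An element of the type bound by HNF4, the receptor that maintains many liver genes, is spelled CAAAGTCCA. Searched on both strands of the 250 bases before the start, it occurred in 10 of the 52 genes (19.2%) and in 0.384% of 32851 promoters. The first share counts genes and the second counts promoters, as do the paired shares given below. All 10 were Cyp2c or Cyp3a genes. Each is shown with 15 bases on either side, read along the gene, with the element in capitals, because paralogs with different levels carry the same letters.
Cyp2c40: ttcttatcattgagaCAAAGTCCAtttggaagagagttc
Cyp2c65: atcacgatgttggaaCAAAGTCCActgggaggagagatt
Cyp2c67: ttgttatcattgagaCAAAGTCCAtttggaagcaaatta
Cyp2c68: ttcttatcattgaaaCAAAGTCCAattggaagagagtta
Cyp2c69: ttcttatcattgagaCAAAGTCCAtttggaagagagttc
Cyp2c70: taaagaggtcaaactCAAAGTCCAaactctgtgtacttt
Cyp3a11: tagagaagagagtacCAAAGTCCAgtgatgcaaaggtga
Cyp3a16: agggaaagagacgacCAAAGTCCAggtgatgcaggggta
Cyp3a41a: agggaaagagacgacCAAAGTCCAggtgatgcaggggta
Cyp3a41b: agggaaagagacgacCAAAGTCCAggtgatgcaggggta
In the order shown, the first letter of the element lay 45, 116, 125, 77, 75, 64, 109, 99, 95 and 95 bases before the RefSeq start. The Cyp3a11 element lies inside the gene as the deposited table lists it, on the minus strand from base 145879964 of chromosome 5. The windows of Cyp3a16, Cyp3a41a and Cyp3a41b were letter for letter the same, as were those of Cyp2c40 and Cyp2c69, while Cyp2c65 was listed at 0 and Cyp3a11 was at 34.7 to 149 FPKM. Of the 9 that were tested none passed the threshold in either direction by limma-trend, and Cyp2c70 was the 1 called by limma-voom, which called 9.27% of all genes. Unadjusted p was under 0.05 for Cyp2c40, Cyp2c69, Cyp2c70 and Cyp3a16, as it was for 13 of the 40 P450 genes and 27.1% of all genes tested. TATAAA occurred in 48.1% of the 52 and 12.4% of all promoters, AGGTCA in 28.8% and 14.0%, and GCGTG in 15.4% and 28.2%. TTATGTAA (the element of PAR bZIP factors and Nfil3) and TTGCGCAA (a C/EBP element) were in none of the 52 and in 0.819% and 0.164% of all promoters. Paralogs share ancestry, so these promoters are not independent.

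The spread between pools of the same genotype was wide for P450 genes, which is given with no test. The median absolute log2 difference between the wild-type pools was 0.42 for the 40 P450 genes and 0.18 over all genes tested, and between the knockout pools it was 0.28 and 0.16. A difference of over 2-fold between pools of a group was found for 4 of the 40 in wild type (Cyp3a11, Cyp2c67, Cyp2c39 and Cyp2c50), or 10% against 5.02% of all genes, and for 5 in the knockout (Cyp2j9, Cyp2c40, Cyp2b13, Cyp2c69 and Cyp2g1), or 12.5% against 4.66%. The 60 genes together took 0.939% and 1.01% of the reads in wild type and 1.25% and 1.16% in the knockout, and Cyp2a5 was the gene with the largest rise among them.

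Enzymes that serve P450s were measured beside them. Por, the main electron donor, was at 200.001 and 197 FPKM in wild type and at 126 and 149.8 FPKM in the knockout, without overlap (log2 fold change -0.53, SE 0.14, limma adjusted p = 0.103). Of 8 electron donors and membrane partners tested, 1 rose: Cyb5b, the cytochrome b5 of the outer mitochondrial membrane, from 34.7 and 34.7 to 54.2 and 54.9 FPKM (log2 fold change 0.64, SE 0.10, limma adjusted p = 0.0466). Of 17 genes of heme synthesis and breakdown none passed by limma-trend, 12 had an unadjusted p under 0.05 (27.1% of all genes tested did) and 3 passed by limma-voom. Both knockout pools were higher for 13 of the 17, as for 31.6% of all genes tested, and the median log2 fold change was 0.45 against 0.01 over all genes tested. Alas1, the rate-limiting enzyme of heme synthesis, was at 76.6 and 68.1 FPKM in wild type and at 142 and 208 FPKM in the knockout (log2 fold change 1.25, SE 0.22, limma adjusted p = 0.0539). Hmox1, which degrades heme and was named after its values had been seen, was at 459 and 821 FPKM in wild type and at 177 and 271 FPKM in the knockout (log2 fold change -1.48, SE 0.37, limma adjusted p = 0.0933).

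Of 30 tested regulators of P450 genes 6 rose and 2 fell, where 1.6% of all genes tested rose and 3.14% fell, with a median log2 fold change of 0.37 against 0.01 over all genes. The xenobiotic receptors were among those that rose: Nr1i2 (PXR) went from 10.5 and 12.7 FPKM to 28.0 and 27.2 FPKM (log2 fold change 1.22, limma adjusted p = 0.0313). Nr1i3 (CAR) went from 7.32 and 10.2 to 20.6 and 22.0 FPKM (1.25, limma adjusted p = 0.0426), and Ahr, the aryl hydrocarbon receptor, from 4.25 and 5.94 to 13.5 and 12.0 FPKM (1.26, limma adjusted p = 0.0426). Beside them stand target genes that went different ways. Of the 9 tested CAR or PXR targets Cyp2a5 and Cyp2c29 rose, Cyp2b10 fell, and 6, Cyp3a11 among them, did not pass. Of the aryl hydrocarbon receptor targets Cyp1a2 did not pass, and Cyp1a1 and Cyp1b1 were under the minimum. Cyp1a1 was at 0.212 and 0.205 FPKM in wild type and at 0.543 and 0.670 FPKM in the knockout, and the groups of Cyp1b1 overlapped. Nr0b2, a corepressor of nuclear receptors, rose from 3.50 and 4.05 to 7.73 and 9.64 FPKM (1.10), and Onecut1, a liver transcription factor, rose from 2.29 and 3.17 to 9.68 and 7.25 FPKM (1.47).

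Nfil3, a repressor that binds the same element as the PAR bZIP factors, fell from 124 and 85.9 to 23.5 and 28.7 FPKM (log2 fold change -1.97, limma adjusted p = 0.0315). Hlf, such a factor, named after its values had been seen, rose from 5.87 and 5.08 to 10.01 and 12.6 FPKM (0.98, limma adjusted p = 0.0483). Tiparp, a target and inhibitor of the aryl hydrocarbon receptor, fell from 10.8 and 11.7 to 3.40 and 4.76 FPKM (-1.37, limma adjusted p = 0.0375). Hnf4a, which encodes the receptor that binds the element shown for the Cyp2c and Cyp3a genes, was at 84.2 and 117 FPKM in wild type and at 125 and 112 FPKM in the knockout, with overlap (0.25, limma adjusted p = 0.445).

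**Figure D5:**
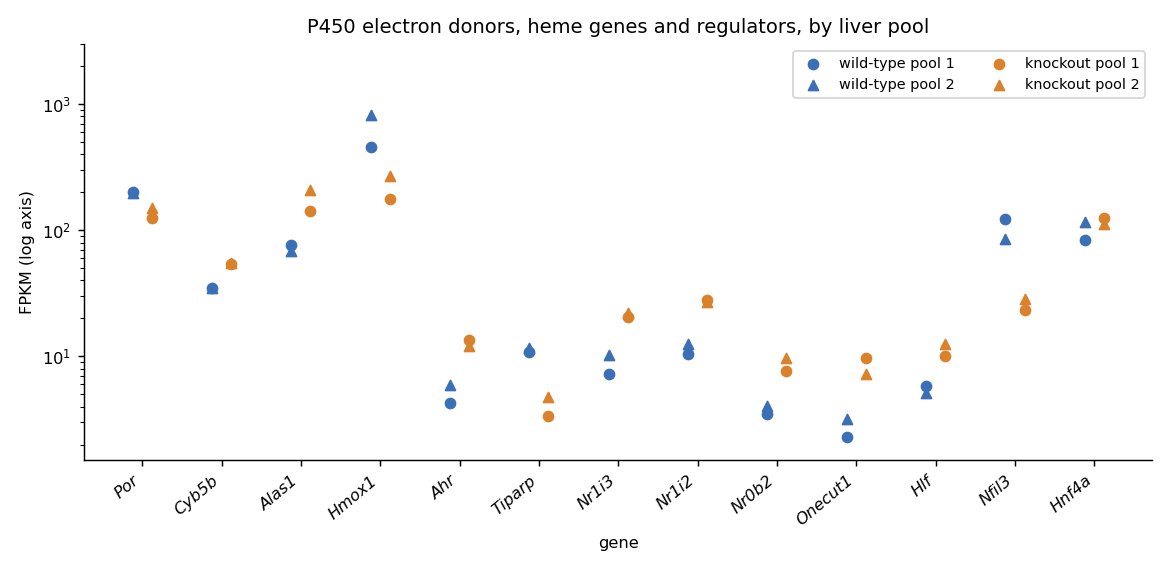
FPKM on a log axis of P450 electron donors, heme genes and regulators, with 1 point for each of the 2 wild-type and 2 knockout pools. The knockout points of Nr1i2, Nr1i3 and Ahr all lie above their wild-type points, those of Nfil3 and Tiparp lie below, and the Hnf4a points overlap between 84.2 and 125 FPKM.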

How the data were processed

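Poly(A)-selected liver RNA was sequenced in 4 libraries, each a pool from 2 mice. The authors deposited 1 FPKM table, which per the file headers also lists each gene's length, biotype and position. The submitters' processing notes name HISAT2 2.0.5 as a tool and mm10, or GRCm38.p6, as the build. The sources used here do not give the counting program, annotation release or strand setting. The product of FPKM and gene length gave whole reads for 100.0% of values above 0, within 0.01 read, and 16330451 to 17804730 reads per library.

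Values were analysed as log2(FPKM + 0.5), so fold changes of low genes are understated. The 11900 genes whose mean reached 1 FPKM entered limma 3.58.1 (R 4.3.3, lmFit and eBayes with a trend, two-sided), with Benjamini-Hochberg adjustment over all of them and a threshold of 0.05. Paralog sums replaced their members' rows in the same fit. Because no protein table was used here, the sums were the 4 named for that case. Sequences came from RefSeq (GRCm38.p6) and GENCODE M21, in which all 60 genes were found and 57 had the same coordinates. The fit was tested on simulated data. Named were all P450 genes that passed, the 6 most abundant, the 6 largest rises and falls, all acetaminophen-oxidising genes, all members of sums, the called partner genes (at most 6 per list) and 6 fixed partner genes. The members, lists and tests were chosen with earlier results of these data known. The alternatives were other pseudocounts, filters, scalings and limma settings, a replicate block and leaving out each library.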

Additional observations from a re-analysis of the deposited data

How the results depend on the processing

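The main analysis called 3 P450 genes higher and 1 lower. Pseudocounts of 0.1 and 1, median-of-ratios scaling and robust limma called the same 4 genes. Filters of 0.1 FPKM and of none called 0 and 0, with 0 genes called in the whole table. With the first, an unadjusted p under 0.05 (limma) was reached by 15 of 47 P450 genes and 3995 of all 19082 genes. With no filter it was reached by 15 of 54 P450 genes and 4388 of all 26643 genes. Limma without a trend called 1 and 1. A filter of 5 FPKM called 5 higher and 1 lower, with Cyp2b10 not tested. Limma-voom on recovered reads, a minimum of 50 reads and protein-coding genes alone each called 5 higher and 2 lower, adding Cyp2b13, Cyp2c70 and Cyp3a59. Over the whole table the calls were 1103 by voom, 280 without a trend, 867 with 50 reads, 1014 among protein-coding genes and 310 with the block, against 564. Scaling to listed reads called 4 and 1, turned Cyp2d26, Cyp2c54 and Cyp3a11 to 0.0253, 0.0499 and 0.0194 on the log2 scale, and moved the split over all genes from 190 higher and 374 lower to 211 and 255. The cause of these differences was not tested.

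Leaving out 1 library gave fewer calls, among the P450 genes and over all genes. The lone library of a group was then assumed to vary like the other group. The sum of Cyp3a41a and Cyp3a41b turned to -0.0361 without the first wild-type pool. Small uncalled fold changes turned sign when a library was left out, with these extremes on the log2 scale: Cyp1a2 -0.11 to 0.69, Cyp2a12 -0.38 to 0.059, Cyp2b9 -0.0517 to 0.16, Cyp2c23 -0.30 to 0.64, Cyp2c39 -0.29 to 0.93, Cyp2c54 -0.24 to 0.21, Cyp2c67 -0.86 to 0.41, Cyp2c68 -0.33 to 0.43, Cyp2d10 -0.28 to 0.0584, Cyp2d26 -0.16 to 0.082, Cyp2e1 -0.0768 to 0.37, Cyp2j5 -0.0265 to 0.36, Cyp2j9 -0.83 to 0.19, Cyp3a11 -1.09 to 1.00, Cyp3a13 -0.34 to 0.0772 and Cyp3a41a -0.17 to 0.25. The replicate numbers are not said to pair the pools, and the deviations of equal numbers correlated at -0.14 over 11900 genes. With the replicate block 1 P450 gene was called higher and 2 lower (Cyp2a5, Cyp2b10 and Cyp2b13). The crossed block, chosen after seeing the data, called 3 higher (Cyp2a5, Cyp2f2 and Cyp3a59) and 1 lower (Cyp2b10), of 552 in the whole table. It did not call Cyp2c29. Planned edgeR and DESeq2 fits were not run, since the deposited unit is FPKM.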

Other observations

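Of 14 P450 pseudogene rows of the same families, which were not among the 60 genes, 3 had a mean of at least 1 FPKM and 7 were listed at 0 in all libraries. Cyp2d37-ps, which lies in the Cyp2d cluster of chromosome 15, was at 15.1 and 21.5 FPKM in wild type and at 21.9 and 18.8 FPKM in the knockout, above the protein-coding Cyp2d9 in every pool. Cyp3a63-ps was at 3.13 and 2.17 FPKM in wild type and at 1.68 and 5.14 FPKM in the knockout, and Cyp2a21-ps, which overlaps Cyp2a22, was at 1.29 and 0.432 FPKM against 1.33 and 1.74 FPKM. The groups overlapped for Cyp2d37-ps and Cyp3a63-ps, and both knockout pools of Cyp2a21-ps lay above both wild-type pools.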
